A study of Mus musculus with 20 samples.

Results

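The complement receptor integrins of the hippocampus were described through 6 genes, picked by symbol from the 24513 genes counted: Itgb2, Itgam, Itgax, Itgal, Itga4 and Fermt3. All 6 passed the low-count filter and were among the 16657 genes tested. Polyadenylated RNA came from hippocampi of male mice aged 9 months and labelled C57BL/6J. There were 4 genotypes with 5 libraries each, named in the labels as PS19/C3aR KO, PS19, C3aR KO and WT. PS19 is a tauopathy model whose transgene encodes human tau with a frontotemporal dementia mutation, expressed under the promoter of the mouse prion protein gene. C3aR, the product of C3ar1, is the receptor for the complement fragment C3a. The labels name the PS19 transgene and the loss of C3aR as the only alleles, and they do not say which part of C3ar1 was removed or whether each library came from a separate animal.

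An integrin is a dimer of an alpha and a beta chain, and the alpha chain decides the ligand. Itgb2 encodes beta 2 (CD18), which pairs with alpha M (CD11b, Itgam) as complement receptor 3, with alpha X (CD11c, Itgax) as complement receptor 4, with alpha L (CD11a, Itgal) as LFA-1 and with alpha D (Itgad). Both complement receptors bind iC3b, the fragment of C3 that stays on tagged surfaces, and in the brain alpha M is carried mainly by microglia, which use it to take up tagged material. Alpha X marks a subset of microglia in ageing and in neurodegeneration, alpha L is best known from lymphocytes, and Itga4 encodes alpha 4, which pairs with beta 1 or beta 7 and binds Vcam1. Fermt3 encodes kindlin-3, a protein of blood-derived cells that binds the beta chain inside the cell and helps to switch the dimer into its binding shape.

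Itgam, Itgax and Fermt3 rose together in PS19 libraries, as described below, and their start regions are shown here. The alpha M and alpha X genes are neighbours. On mm10 (GRCm38), Itgal, Itgam, Itgax and Itgad lie in that order on the plus strand of chromosome 7, with Itgal at chr7:127296260-127335138, Itgam at chr7:128062640-128118491 and Itgax at chr7:128129547-128150657. Itgb2 lies at chr10:77530252-77565708 and Itga4 at chr2:79255426-79333123, both on the plus strand, and Fermt3 at chr19:6998958-7019469 on the minus strand (GENCODE vM21). RefSeq windows (GRCm38.p6) of 300 bases, 250 before and 50 after the start site, were matched for 4 of the 6 genes: Itgam, Itgax, Itga4 and Fermt3. Windows were searched on both strands for GAGGAA (a PU box, bound by Spi1/PU.1), TGTGGT (bound by RUNX factors) and TGANTCA (bound by AP-1), which were chosen after the sequences were seen. The sequences below run 5′ to 3′ on the strand of the gene, with matches in capitals, at chr7:128062390-128062689 (plus) for Itgam, chr7:128129300-128129599 (plus) for Itgax and chr19:7019420-7019719 (minus) for Fermt3.
Itgam: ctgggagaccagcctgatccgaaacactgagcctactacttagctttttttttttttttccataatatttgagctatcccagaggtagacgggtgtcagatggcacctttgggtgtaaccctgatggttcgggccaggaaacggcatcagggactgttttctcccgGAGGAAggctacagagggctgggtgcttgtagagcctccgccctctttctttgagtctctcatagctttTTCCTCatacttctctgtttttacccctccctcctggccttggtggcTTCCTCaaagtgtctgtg
Itgax: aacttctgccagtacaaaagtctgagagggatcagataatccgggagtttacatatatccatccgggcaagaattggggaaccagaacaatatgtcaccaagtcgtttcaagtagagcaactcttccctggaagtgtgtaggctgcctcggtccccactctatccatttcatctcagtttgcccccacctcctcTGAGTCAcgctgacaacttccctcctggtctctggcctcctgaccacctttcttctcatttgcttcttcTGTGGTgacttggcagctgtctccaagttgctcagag
Fermt3: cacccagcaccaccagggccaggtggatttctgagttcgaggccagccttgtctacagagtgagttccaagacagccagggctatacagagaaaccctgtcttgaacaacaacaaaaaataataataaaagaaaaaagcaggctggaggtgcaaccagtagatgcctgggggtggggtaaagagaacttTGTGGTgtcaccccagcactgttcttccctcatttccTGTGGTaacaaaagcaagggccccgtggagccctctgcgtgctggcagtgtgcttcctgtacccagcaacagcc
Itgam held 3 PU boxes, at positions -84, -15 and 32 (the first base of the match in the printed sequence, with the start site at 0), and no match to the other motifs. Itgax held 1 AP-1 match at -56 and 1 RUNX match at 13, Fermt3 held RUNX matches at -61 and -24, and Itga4, not printed, held 1 RUNX match at -60. No matches overlapped each other. The PU box letters occurred in 28.3% of 32851 windows of this length, the RUNX letters in 16.8% and the AP-1 letters in 7.81%, so each is common and a match describes letters, not a site in use. These shares count windows with at least 1 match, and the share with 3 is not given here. Since the letters were chosen after the sequences were seen, a difference in motifs between the genes was not tested.

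Gene counts per library ranged from 33885850 to 47828111. C3ar1 did not follow the C3aR KO label: it was at 15.6 to 18.7 CPM (counts per 1000000 gene counts) in PS19/C3aR KO libraries, 4.86 to 14.0 CPM in PS19, 14.4 to 18.0 CPM in C3aR KO and 1.66 to 2.34 CPM in WT. The edgeR log2 fold change of C3ar1 in C3aR KO minus WT was 2.94 (SE 0.20, adjusted p = 9.51e-08), and gene totals do not show which exons were read. Prnp, whose promoter drives the transgene, followed the PS19 label, at 1927 ± 75.6 CPM in PS19/C3aR KO libraries, 1910 ± 61.0 CPM in PS19, 851 ± 27.4 CPM in C3aR KO and 863 ± 39.1 CPM in WT (SD, n = 5 each). Every direction below that involves these genotypes is therefore that of the libraries labelled C3aR KO or labelled PS19/C3aR KO. All 12 genes of a list of resting microglia (Cx3cr1, P2ry12, Tmem119 and others) were counted in every library. Their summed CPM was 438 to 645 in libraries labelled PS19/C3aR KO, 480 to 871 in PS19, 369 to 422 in libraries labelled C3aR KO and 374 to 403 in WT. Genes of blood cells that also carry these integrins were low in most lists, with Ncr1 at 0 in all 5 libraries labelled C3aR KO and Gzmb and Ms4a1 at 0 in all 5 WT libraries. Exceptions included Cxcr2 of the neutrophil list, at 8.14 to 11.7 CPM over the 20 libraries, and Flt3 of the dendritic cell list, at 7.76 to 14.2 CPM. The platelet list (5 genes) summed to 8.97 to 16.3 CPM. The dendritic cell list (6 genes) summed to 18.1 to 21.2 CPM in libraries labelled PS19/C3aR KO, 15.2 to 18.9 in PS19, 16.7 to 21.5 in libraries labelled C3aR KO and 17.1 to 22.1 in WT. The T and NK cell list (13 genes) summed to 2.88 to 4.38 CPM in libraries labelled PS19/C3aR KO, 1.83 to 4.17 in PS19, 2.58 to 3.66 in libraries labelled C3aR KO and 1.94 to 2.53 in WT, and the monocyte list (5 genes) stayed between 0.539 and 4.83 CPM in the 20 libraries. PS19 library 3 stood apart in the neutrophil list, which summed to 68.3 CPM there (S100a9 19.3, Ngp 16.2, S100a8 11.9) against 9.06 to 12.7 CPM in the other 19 libraries. It also had the highest sum of the 20 libraries for platelets (16.3 CPM), monocytes (4.83), B cells (1.81) and border-associated macrophages (57.1). PS19 library 5 stood apart in the other direction, with the lowest resting microglia sum of its group (480 CPM, against 743 to 871 in PS19 libraries 1 to 4) and the highest Rn45s share (3.65% of gene counts, against 0.873 to 1.77%). What these libraries contribute to the results was not tested except by leaving them out.

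**Figure D1:**
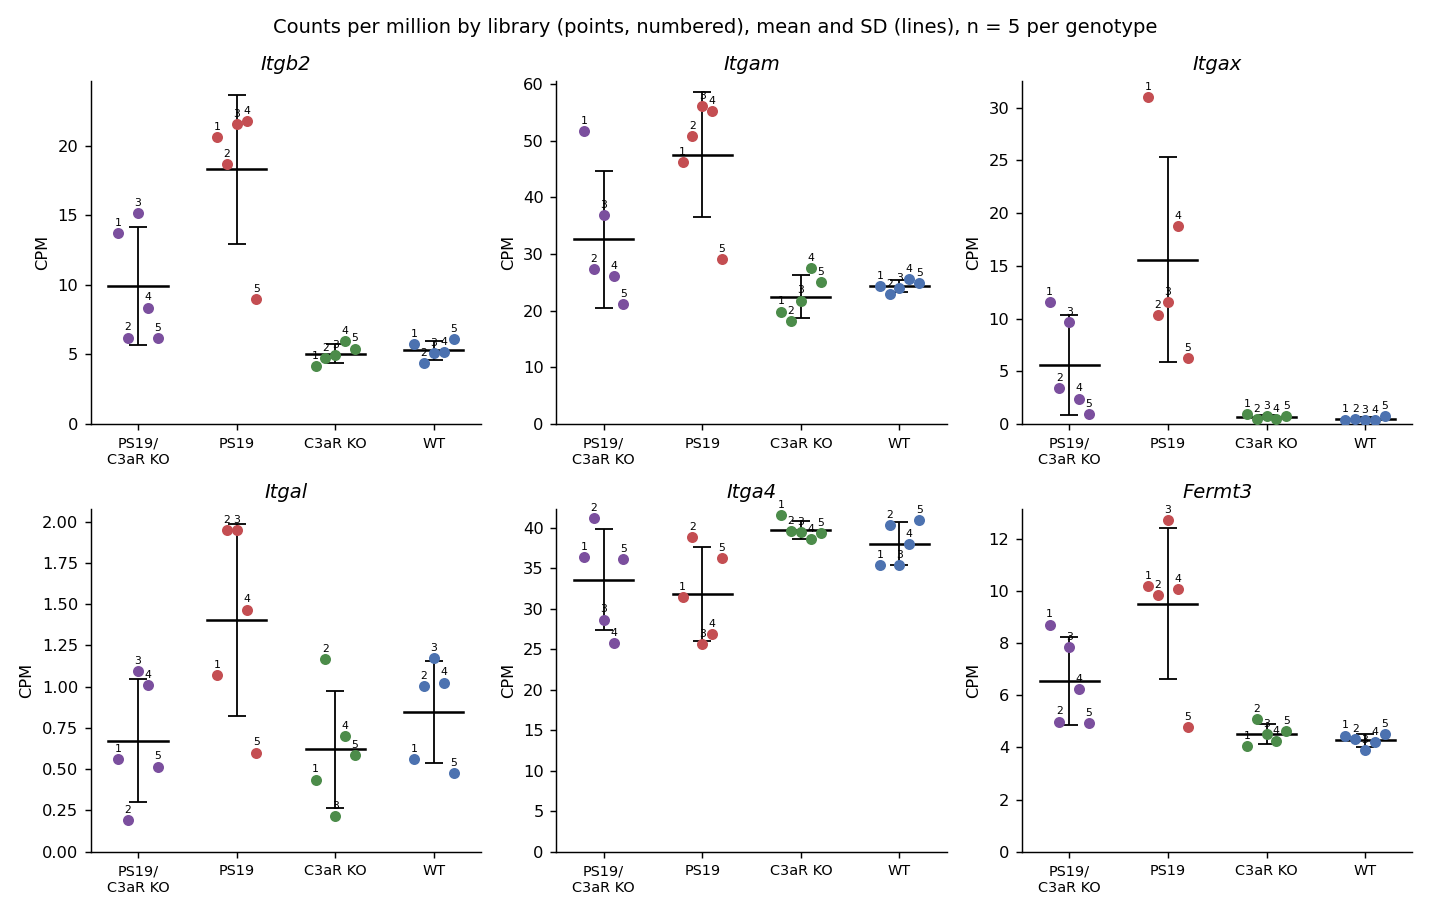
CPM of the 6 genes in each library, with libraries numbered and the mean ± SD (n = 5) of each genotype as lines. The 5 PS19 libraries lie above the 5 WT libraries for Itgb2, Itgam, Itgax and Fermt3, the libraries labelled PS19/C3aR KO spread widely for these genes, and PS19 library 5 is the lowest of its group for every gene except Itga4.

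In PS19 minus WT, 4 of the 6 genes rose and none fell at an adjusted p below 0.05 (edgeR quasi-likelihood test, Benjamini-Hochberg over all genes tested), where 7.50% of all genes tested were called higher and 3.32% lower. Alpha X rose most, followed by beta 2, kindlin-3 and alpha M, and alpha L and alpha 4 did not pass. DESeq2 called the same number, 4 higher, against 8.81% of all genes. In the same 4 genes every PS19 library lay above every WT library, a separation that 8.11% of all genes tested showed. The median log2 fold change was 0.99 over the 6 genes and -0.0068 over all genes tested. These are totals from tissue, so more cells of a type and more RNA per cell cannot be told apart. Since the labels do not tie libraries to animals, p-values speak only of the spread from library to library, part of which may be technical.

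Itgb2, the beta chain shared by both complement receptors, had 13.7, 6.21, 15.2, 8.38 and 6.19 CPM in libraries 1 to 5 labelled PS19/C3aR KO, and 20.7, 18.7, 21.5, 21.8 and 8.96 CPM in PS19 libraries 1 to 5. It had 4.19, 4.75, 4.93, 5.97 and 5.42 CPM in libraries labelled C3aR KO, and 5.72, 4.38, 5.09, 5.17 and 6.08 CPM in WT. PS19 libraries 1 to 4 lay within a narrow band and library 5 lay far under them, yet above all WT libraries. Libraries 1 and 3 labelled PS19/C3aR KO were high, while libraries 2 and 5 were barely above the highest WT library. Itgb2 averaged 18.3 ± 5.37 CPM in PS19 and 5.29 ± 0.651 CPM in WT (SD, n = 5 each), a log2 fold change of 1.72 (SE 0.25, adjusted p = 0.000287 by edgeR), or 3.30-fold. The order of the means was PS19, PS19/C3aR KO, WT and C3aR KO, and the only neighbours in it whose libraries did not overlap were those labelled PS19/C3aR KO and WT.

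Itgam, the alpha chain of complement receptor 3, was the most abundant of the beta 2 partners. It had 51.7, 27.3, 36.8, 26.1 and 21.1 CPM in libraries labelled PS19/C3aR KO, and 46.2, 50.8, 56.1, 55.3 and 29.1 CPM in PS19. It had 19.8, 18.2, 21.8, 27.5 and 25.0 CPM in libraries labelled C3aR KO, and 24.3, 22.9, 24.0, 25.6 and 24.9 CPM in WT. The WT libraries were close together, the lowest PS19 library was still above them, and 2 libraries labelled PS19/C3aR KO were above every library labelled C3aR KO. Itgam averaged 47.5 ± 11.02 CPM in PS19 and 24.3 ± 0.993 CPM in WT (SD, n = 5 each), a log2 fold change of 0.90 (SE 0.20, adjusted p = 0.00553 by edgeR). This call was lost when the share of Rn45s, a ribosomal RNA precursor, was added to the fit (log2 fold change 0.73, adjusted p = 0.112). That share was 0.873 to 1.77% of gene counts in PS19 libraries 1 to 4, 3.65% in library 5 and 2.85 to 4.48% in WT. It thus differed with genotype in this comparison, and its part was not tested apart from genotype. Neighbouring genotypes in the order of means (PS19, PS19/C3aR KO, WT, C3aR KO) overlapped throughout. In GENCODE vM21, 3450 bases or 68.7% of the Itgam exons also belong to the gene model Gm49368 on the same strand, and read pairs there would be set aside as ambiguous if the authors' annotation held both.

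Itgax, the alpha chain of complement receptor 4, had 11.6, 3.43, 9.68, 2.42 and 0.922 CPM in libraries labelled PS19/C3aR KO, and 31.0, 10.3, 11.5, 18.8 and 6.23 CPM in PS19. It had 0.925, 0.441, 0.735, 0.502 and 0.753 CPM in libraries labelled C3aR KO, and 0.413, 0.465, 0.400, 0.384 and 0.729 CPM in WT. Relative to its mean, Itgax was the most variable of the 6 genes within both PS19 genotypes: PS19 library 1 was far above the rest of its group, and library 5 labelled PS19/C3aR KO lay at the level of the highest library labelled C3aR KO. The WT values rest on 14 to 29 counts per library. Itgax averaged 15.6 ± 9.74 CPM in PS19 and 0.478 ± 0.144 CPM in WT (SD, n = 5 each), a log2 fold change of 4.94 (SE 0.61, adjusted p = 0.000163 by edgeR) with a 95% interval of 3.67 to 6.21. Without PS19 library 1 it was 4.54 and still called, the lowest value when any single library was left out. Neighbours in the order of means (PS19, PS19/C3aR KO, C3aR KO, WT) overlapped throughout.

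Fermt3, which encodes kindlin-3, had 8.70, 4.98, 7.85, 6.23 and 4.94 CPM in libraries labelled PS19/C3aR KO, and 10.2, 9.84, 12.7, 10.1 and 4.78 CPM in PS19. It had 4.06, 5.08, 4.52, 4.24 and 4.62 CPM in libraries labelled C3aR KO, and 4.45, 4.31, 3.89, 4.198 and 4.50 CPM in WT. PS19 library 5 exceeded the highest WT library only slightly. PS19 library 3, which had the highest neutrophil and platelet sums, was the highest of all 20. Fermt3 averaged 9.51 ± 2.89 CPM in PS19 and 4.27 ± 0.245 CPM in WT (SD, n = 5 each), a log2 fold change of 1.09 (SE 0.19, adjusted p = 0.000985 by edgeR). Without PS19 library 3, the 4 calls of PS19 minus WT were still 4. The Fermt3 exons share 89 bases with Trpt1 on the other strand, and Trpt1 did not pass in PS19 minus WT (log2 fold change -0.025).

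Itgal and Itga4, the alpha chains better known from lymphocytes, did not pass in any of the comparisons scaled to all gene counts, except that Itga4 was called in PS19 minus WT with the replicate number as a block (-0.33, adjusted p = 0.0331). Itgal, of LFA-1, was rare, with 8 to 77 counts per library: 0.561, 0.192, 1.09, 1.01 and 0.515 CPM in libraries labelled PS19/C3aR KO and 1.07, 1.95, 1.95, 1.47 and 0.601 CPM in PS19. It had 0.437, 1.17, 0.218, 0.702 and 0.585 CPM in libraries labelled C3aR KO, and 0.560, 1.004, 1.17, 1.02 and 0.478 CPM in WT. All 4 genotypes overlapped, and the log2 fold change of PS19 minus WT was 0.67 (SE 0.42, adjusted p = 0.358 by edgeR, 95% interval -0.21 to 1.54), so a 2-fold difference lies inside the interval. Itga4 had 36.4, 41.2, 28.7, 25.7 and 36.1 CPM in libraries labelled PS19/C3aR KO, and 31.4, 38.8, 25.6, 26.8 and 36.3 CPM in PS19. It had 41.5, 39.6, 39.4, 38.6 and 39.3 CPM in libraries labelled C3aR KO, and 35.4, 40.3, 35.3, 38.0 and 40.9 CPM in WT. PS19 libraries 1, 3 and 4 were below every WT library and libraries 2 and 5 were not. The log2 fold change of PS19 minus WT was -0.32 (SE 0.12, adjusted p = 0.114 by edgeR). About 8.04% of the Itga4 exons (1124 bases) overlap Cerkl on the other strand. Cerkl was at 1.34 to 2.84 CPM and fell in PS19 minus WT (log2 fold change -0.57, adjusted p = 0.0220), and its part in the Itga4 counts was not tested.

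Levels between genes were compared per kilobase of exon. On the scale of CPM per kb, WT hippocampus held alpha M at 4.84 ± 0.198, alpha 4 at 2.72 ± 0.189, beta 2 at 1.73 ± 0.213, kindlin-3 at 0.738 ± 0.0424, alpha L at 0.129 ± 0.0469, alpha X at 0.0996 ± 0.0299 and alpha D at 0.0412 ± 0.0236 (SD, n = 5). Alpha X and alpha L overlapped in WT. In PS19, alpha X stood at 3.24 ± 2.03 CPM per kb, above alpha 4 (2.27 ± 0.412) and kindlin-3 (1.64 ± 0.4997) and below beta 2 (6.00 ± 1.76) in the means. The alpha chains that pair with beta 2 (alpha M, X, L and D) summed to 2.45 ± 0.490 times the level of beta 2 in libraries labelled PS19/C3aR KO, 2.19 ± 0.207 times in PS19, 2.89 ± 0.197 times in libraries labelled C3aR KO and 2.98 ± 0.322 times in WT (CPM per kb, SD, n = 5 each). The highest PS19 ratio was 2.47 and the lowest WT ratio 2.62, so these groups did not overlap.

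Among those beta 2 partners the makeup differed by genotype. Alpha X made up 18.8, 11.4, 21.0, 8.56 and 4.24% of alpha chain counts per kb in libraries labelled PS19/C3aR KO and 40.6, 17.1, 17.3, 25.7 and 17.9% in PS19. It made up 4.53, 2.30, 3.31, 1.82 and 2.98% in libraries labelled C3aR KO and 1.71, 2.004, 1.63, 1.49 and 2.91% in WT. Every PS19 library had a larger alpha X share than every WT library, and 1 library labelled PS19/C3aR KO (library 5) fell inside the range of those labelled C3aR KO. The share was 21.8 percentage points higher in PS19 than in WT (23.7 ± 10.1% against 1.95 ± 0.570%, SD, n = 5 each; two-sided exact permutation test, p = 0.00794, the smallest that these permutations allow, adjusted p = 0.0198 over 5 comparisons). Libraries labelled PS19/C3aR KO exceeded those labelled C3aR KO by 9.82 points (12.8 ± 7.01% against 2.99 ± 1.04%; exact permutation p = 0.0159, adjusted p = 0.0265). That call was lost without library 2, 3 or 5 labelled C3aR KO (9.65, 9.90 and 9.82 points, adjusted p = 0.0529). Against PS19, libraries labelled PS19/C3aR KO differed by -10.9 points (exact permutation p = 0.0794, adjusted p = 0.0794; -6.70 points without PS19 library 1), and in C3aR KO minus WT 1.04 points (p = 0.0714, adjusted p = 0.0794). Neither of these passed. Against WT, libraries labelled PS19/C3aR KO were 10.9 points higher (exact permutation p = 0.00794, adjusted p = 0.0198). Alpha M made up most of the rest: 84.9 ± 6.64% in libraries labelled PS19/C3aR KO, 74.1 ± 9.74% in PS19, 93.4 ± 1.87% in libraries labelled C3aR KO and 94.7 ± 1.03% in WT. Alpha L stayed at or below 4.45% and alpha D at or below 2.74% in every library.

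**Figure D2:**
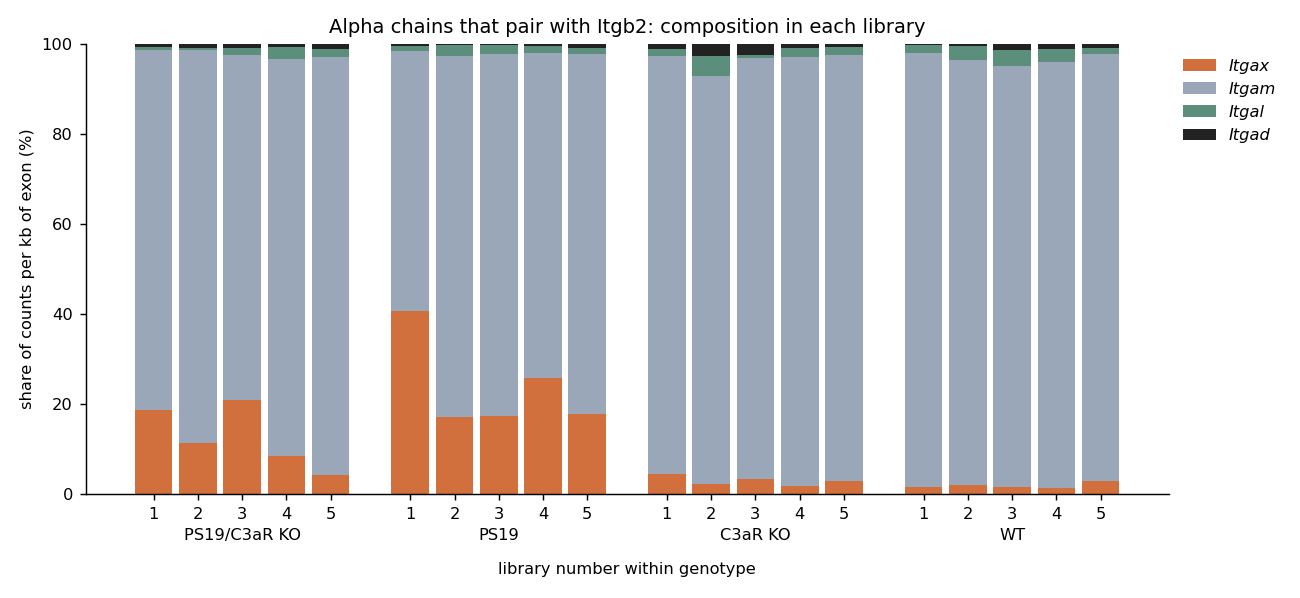
Share (%) of each alpha chain that pairs with beta 2, by library and genotype, from counts per kb of exon. Alpha X reaches 17.1 to 40.6% in PS19 libraries and 4.24 to 21.0% in libraries labelled PS19/C3aR KO, against 1.49 to 2.91% in WT.

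Between the genotypes labelled PS19/C3aR KO and C3aR KO, which hold the transgene effect among libraries labelled as lacking C3aR, edgeR called none of the 6 genes, where 0.00600% of all genes tested (1 gene) were called. At an unadjusted p below 0.05, 4 were higher (5.97% of all genes) and 1, Itga4, was lower (3.74%). DESeq2 called 2 higher, Itgax (adjusted p = 0.000121) and Itgb2 (adjusted p = 0.0202), against 0.751% of all genes. The log2 fold change was 3.01 for Itgax (SE 0.57, adjusted p = 0.0724 by edgeR), 0.94 for Itgb2 (SE 0.24, adjusted p = 0.165), 0.51 for Fermt3 (adjusted p = 0.325), 0.51 for Itgam (adjusted p = 0.355; 0.28 without library 1 labelled PS19/C3aR KO), 0.08 for Itgal (adjusted p = 0.981) and -0.26 for Itga4 (adjusted p = 0.503). Itgb2 was the gene of the 6 whose libraries did not overlap (9.93 ± 4.25 CPM in those labelled PS19/C3aR KO and 5.05 ± 0.676 CPM in those labelled C3aR KO, SD, n = 5 each), a separation that 1.54% of all genes showed. Without PS19 library 5, which enters through the shared estimate of spread, Itgax (adjusted p = 0.0264) and Itgb2 (adjusted p = 0.0451) were called, and Itgax alone was called without library 2 or library 5 labelled PS19/C3aR KO.

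Set against PS19 itself, the libraries labelled PS19/C3aR KO gave no edgeR call among the 6 genes, where 0.252% of all genes were called. At an unadjusted p below 0.05, 5 of the 6 were lower, all but Itga4, against 8.91% of all genes, and DESeq2 called 1 lower, Itgb2 (adjusted p = 0.0195), against 1.88%. The log2 fold change was -1.48 for Itgax (SE 0.49, adjusted p = 0.163 by edgeR), -1.07 for Itgal (SE 0.43, adjusted p = 0.253), -0.89 for Itgb2 (SE 0.24, adjusted p = 0.0965), -0.55 for Itgam (adjusted p = 0.192), -0.54 for Fermt3 (adjusted p = 0.171) and 0.08 for Itga4 (adjusted p = 0.819). The groups overlapped in all 6 genes, where 1.01% of all genes lay wholly lower. PS19 library 5 lay inside the range of the libraries labelled PS19/C3aR KO for all 6 genes except Fermt3, in which it was the lowest of these 10. Without it Itgb2 (-1.05, adjusted p = 0.0117) and Fermt3 (-0.70, adjusted p = 0.0105) were called. Without library 1 labelled PS19/C3aR KO, Itgb2 and Itgam were called, at an adjusted p of 0.0481 and 0.0388.

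In C3aR KO minus WT none of the 6 genes was called by edgeR (0.0600% of all genes), by DESeq2 (0.348% of all genes) or at an unadjusted p below 0.05 (6.00% of all genes), and all 6 overlapped, where 1.31% of all genes did not. The log2 fold changes ran from -0.48 for Itgal to 0.45 for Itgax. Leaving out 1 library moved them to between -0.81 (without C3aR KO library 2) and -0.27 (without C3aR KO library 3) for Itgal and between 0.30 (without C3aR KO library 1) and 0.66 (without WT library 5) for Itgax. The 95% interval was -0.62 to 0.41 for Itgb2, -0.57 to 0.25 for Itgam and -0.92 to 1.82 for Itgax, so the rare alpha X was measured far less closely than the others here. In PS19/C3aR KO minus WT, 1 of the 6 genes rose by edgeR, Itgax (log2 fold change 3.46, SE 0.59, adjusted p = 0.0102), against 0.588% of all genes called higher. The call, not the size, was lost with the Rn45s share in the fit (3.38, adjusted p = 0.0566) and with only these groups fitted (3.46, adjusted p = 0.0594). The Rn45s share was 1.04 to 3.03% in libraries labelled PS19/C3aR KO and 2.85 to 4.48% in WT, so it also differed with genotype. Itgb2 was at 0.84 (adjusted p = 0.101) and Fermt3 at 0.55 (adjusted p = 0.153). DESeq2 called 2 higher, Itgax and Itgb2, against 2.03% of all genes, and 3 genes (Itgax, Itgb2 and Fermt3) did not overlap, against 4.36%. The comparisons that share PS19 or WT libraries are not independent of each other.

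The interaction asks whether the PS19 effect differed between libraries labelled C3aR KO and the others. None of the 6 genes was called by edgeR (0.0120% of all genes) or DESeq2 (0.0180%). At an unadjusted p below 0.05, 3 were lower: Itgax (-1.92, SE 0.81), Itgb2 (-0.78, SE 0.34) and Fermt3 (-0.58, SE 0.26), against 2.91% of all genes. Their edgeR adjusted p was 0.9995, so a difference of the PS19 effect between these genotypes was not shown.

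**Figure D3:**
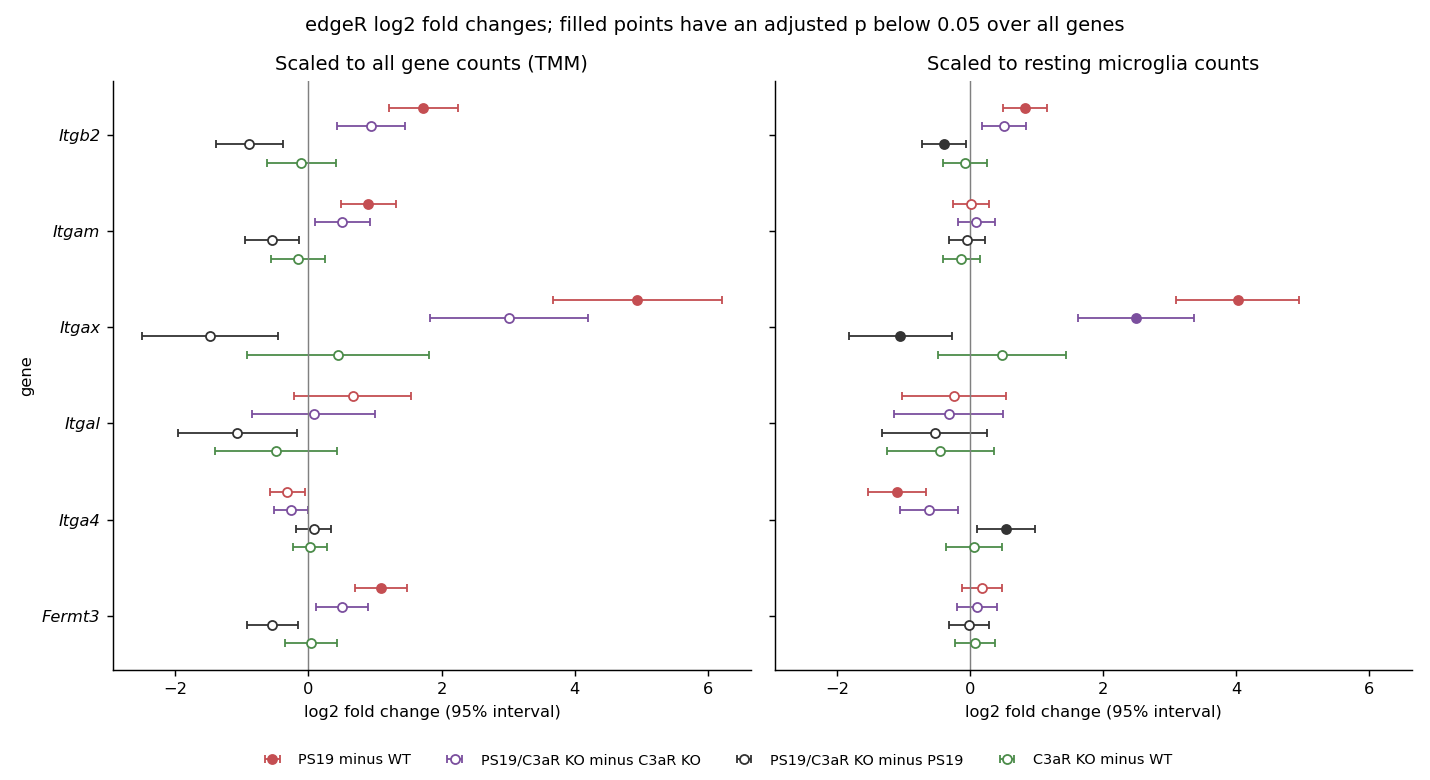
edgeR log2 fold changes (x axis) with 95% intervals for the 6 genes in 4 comparisons, scaled to all gene counts on the left and to the summed counts of the resting microglia list on the right. Scaling to microglia moves Itgam and Fermt3 to near 0 in PS19 minus WT (0.02 and 0.19), while Itgax (4.02) and Itgb2 (0.82) keep filled points.

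Because the resting microglia list itself rose in PS19, the genes were also fitted with the summed counts of that list as the library size. This moved the median log2 fold change of all genes to -0.83 in PS19 minus WT, -0.37 in PS19/C3aR KO minus C3aR KO, 0.49 in PS19/C3aR KO minus PS19, 0.03 in C3aR KO minus WT, -0.32 in PS19/C3aR KO minus WT and 0.46 in the interaction. Values below are read against those shifts. In PS19 minus WT, 2 of the 6 genes were higher on this scale, Itgax and Itgb2, against 1.13% of all genes, and 1, Itga4, was lower, against 85.9%, which makes the call of Itga4 the common one. Itgax was at 4.02 (SE 0.45, adjusted p = 5.78e-06 by edgeR). Itgb2 was at 0.82 (SE 0.16, adjusted p = 6.51e-05), while Itgam was at 0.02 (95% interval -0.26 to 0.29) and Fermt3 at 0.19 (95% interval -0.11 to 0.49). With the list of general microglial and myeloid genes (Ptprc, Cd68, Spi1 and others) as the library size, Itgax was still called at 3.59, Itgb2 was at 0.37 and no longer called, and Itgam turned to -0.43 (adjusted p = 0.0272). That list rose more in PS19 minus WT than the resting list (median 1.38 against 0.73). The shift of all genes and the share called on that scale are not given here. The Itgam value is thus a ratio to that list and not a fall in Itgam CPM.

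Per 1000 counts of resting microglia genes, Itgb2 had 21.9, 13.7, 23.5, 17.5 and 14.1 counts in libraries labelled PS19/C3aR KO and 25.4, 25.1, 24.8, 25.0 and 18.7 in PS19. It had 11.4, 12.7, 12.8, 14.2 and 12.8 in libraries labelled C3aR KO and 14.3, 11.7, 12.6, 13.1 and 15.6 in WT. PS19 libraries 1 to 4 were almost equal on this scale. Itgax per 1000 of those counts had 18.5, 7.55, 15.01, 5.06 and 2.11 in libraries labelled PS19/C3aR KO and 38.2, 13.9, 13.3, 21.6 and 12.97 in PS19. It had 2.51, 1.18, 1.90, 1.19 and 1.78 in libraries labelled C3aR KO and 1.03, 1.24, 0.992, 0.972 and 1.87 in WT. PS19 library 5 was thus close to libraries 2 and 3 of its group for alpha X once scaled to microglial genes, while it was still the lowest for beta 2. Itgam was 60.5 ± 13.03 in libraries labelled PS19/C3aR KO, 62.7 ± 4.32 in PS19, 56.7 ± 6.27 in libraries labelled C3aR KO and 62.1 ± 2.17 in WT (SD, n = 5 each), and these ranges overlapped.

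On the same scale, PS19/C3aR KO minus C3aR KO gave 1 call of 6, Itgax at 2.50 (SE 0.42, adjusted p = 0.0126 by edgeR), against 0.120% of all genes called higher. The call was lost without library 2 or 4 labelled C3aR KO or library 1 labelled PS19/C3aR KO (adjusted p up to 0.0591). In PS19/C3aR KO minus PS19, 2 genes were lower, Itgax at -1.05 (SE 0.38, adjusted p = 0.0199) and Itgb2 at -0.39 (SE 0.16, adjusted p = 0.0334), against 0.360% of all genes, and Itga4 was higher at 0.54, against 67.9%. The Itgax call was lost without PS19 library 1 and without library 4 or 5 labelled PS19/C3aR KO, and the Itgb2 call was lost in 7 of the 20 fits that left out 1 library. The Itga4 call was lost without PS19 library 1, 3 or 4 and without library 2 or 5 labelled PS19/C3aR KO (adjusted p up to 0.101). With the general microglial list as the library size, Itgb2 was at -0.15 and not called (adjusted p = 0.454). C3aR KO minus WT gave no edgeR call (0.0240% of all genes) and no unadjusted p below 0.05, PS19/C3aR KO minus WT gave Itgax at 2.97 (SE 0.44, adjusted p = 0.00112, against 0.186% of all genes called higher), and the interaction gave no edgeR call (0.0120% of all genes), with Itgax lower at an unadjusted p of 0.0171 (-1.52, adjusted p = 0.142). Without PS19 library 5 the interaction called Itgax (-1.64, adjusted p = 0.0274) and Itga4 (0.74, adjusted p = 0.0126). The share of all genes called in that fit is not given here. With all libraries the median of all genes in the interaction was 0.46 on this scale, so the direction of Itga4 was the common one. DESeq2 was not run on this scale.

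**Figure D4:**
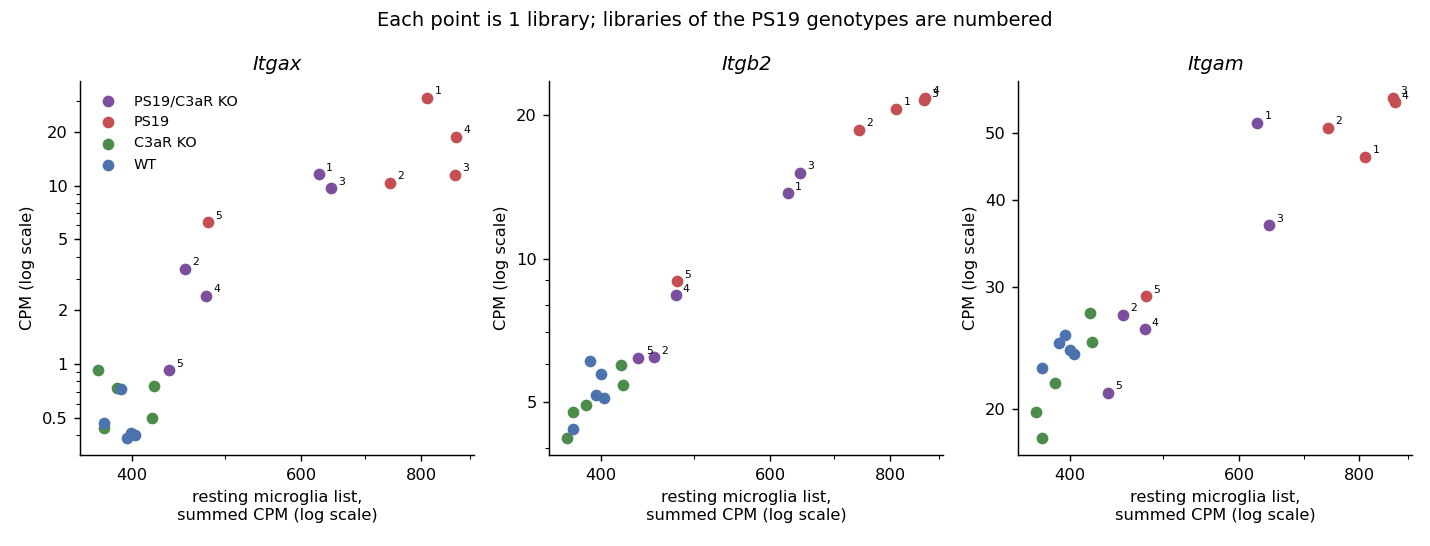
CPM of Itgax, Itgb2 and Itgam (y axes, log scale) against the summed CPM of the resting microglia list (x axes, log scale), 1 point per library, with libraries of the PS19 genotypes numbered. Itgb2 and Itgam climb together with the microglial sum, and Itgax spans 0.384 to 31.0 CPM over a microglial sum of 369 to 871 CPM.

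Within genotypes, the genes of the myeloid dimers also varied together. Libraries of a genotype differed in depth and cell makeup, whose part in the values below was not tested. Over deviations of log2 CPM from the group means in 20 libraries, the Pearson r of Itgb2 was 0.88 with Fermt3 and 0.87 with Itgam. The r of Itgb2 with Itgax was 0.73, and that of Itgam with Itgax was 0.71. For Itgal with Itgax it was -0.0045, and for Itga4 with Itgb2 it was -0.49, so alpha 4 varied against the beta chain. Alpha L lay between, at 0.25 with Itgam, 0.44 with Itgb2 and 0.50 with Fermt3. These values are descriptions and were not tested.

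The genes whose log2 CPM followed each member most closely over the 20 libraries, among 12820 genes, were as follows. Among the genes that followed Itgb2 most closely were Myo1f, Fcgr2b, Csf1r (the receptor microglia need to survive) and Ly86 (Pearson r 0.986). Itgam was followed by Rab3il1 (r 0.965), Nckap1l, Unc93b1, Csf1r and Lyn. Fermt3 was followed by Ncf1 (a subunit of the phagocyte oxidase, r 0.979), C1qa, Ctss, Myo1f and Csf3r. Itgax was followed by Gfap, the filament of reactive astrocytes (r 0.958), and then by Cd68, Lag3, Slc14a1 and Tyrobp. Itgal and Itga4 had weaker and different followers: Ntsr2 (r 0.781), Nupr1, Pycard, Sdsl and Mtap for Itgal, and Sp3os (r 0.855), Rasal1, Ap3m2, Rab26 and Tmem63c for Itga4. The libraries span 4 genotypes, so an r here also holds differences between genotypes and is a description. Over deviations from the group means, r with Itgax was 0.759 for Gfap, 0.797 for Cd68, 0.850 for Lag3, 0.810 for Slc14a1 and 0.740 for Tyrobp.

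Among the ligands of these integrins (12 of 15 tested), 5 rose and 2 fell in PS19 minus WT by edgeR, with a median log2 fold change of 0.26. Of all genes tested, 7.50% rose and 3.32% fell. C3, the source of iC3b, rose by 2.81 (SE 0.62, adjusted p = 0.00578 by edgeR) to 21.998 CPM in PS19, against 3.001 CPM in WT. Icam1, the ligand of LFA-1 and complement receptor 3, rose by 1.37 (adjusted p = 0.00196), Plaur, the urokinase receptor that binds alpha M beta 2, by 1.85 (adjusted p = 0.00550) and Vcam1, the ligand of alpha 4 beta 1, by 0.50 (adjusted p = 0.0165). The neuronal ligand Icam5 was among the 2 that fell (log2 fold change -0.34, adjusted p = 0.0279), with Thy1 at -0.15 (adjusted p = 0.0336). None of the 12 passed by edgeR in PS19/C3aR KO minus C3aR KO (0.00600% of all genes). At an unadjusted p below 0.05, 4 were higher and 2 lower (5.97% and 3.74% of all genes), and DESeq2 called 2 higher (0.751%). C3 was at 2.65 there (adjusted p = 0.129). PS19/C3aR KO minus PS19 gave no ligand by edgeR (0.252% of all genes) or DESeq2 (1.88% lower). At an unadjusted p below 0.05, 1 was lower, where 8.91% of all genes were lower.

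Of the other integrin subunits (21 of 22 tested), 7 rose and 1 fell in PS19 minus WT, with a median of 0.27. The shares of all genes were 7.50% higher and 3.32% lower. The largest was Itga5 (alpha 5, a fibronectin receptor chain) at 0.93 (SE 0.19, adjusted p = 0.00387 by edgeR), followed by Itgb5 (beta 5) at 0.85 (adjusted p = 0.000239). Itga6 (alpha 6, a laminin receptor chain) was at 0.48 and Itgb1, the beta chain that alpha 4 can pair with, at 0.24 (adjusted p = 0.0197). Itgb7, the other beta partner of alpha 4, was rare (1.02 CPM in PS19 and 0.925 CPM in WT) and did not pass (log2 fold change 0.07, adjusted p = 0.893), and neither did Itgad (0.37, adjusted p = 0.681). Itga8 fell by 0.38 (adjusted p = 0.0440). None of these 21 passed by edgeR or DESeq2 in PS19/C3aR KO minus C3aR KO. At an unadjusted p below 0.05, 5 were higher there, against 5.97% of all genes. PS19/C3aR KO minus PS19 gave none by edgeR, and DESeq2 called 1 lower (1.88% of all genes). At an unadjusted p below 0.05, 4 were lower, against 8.91% of all genes.

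Of 16 genes of a list on the control of integrin activation, 7 rose and 1 fell in PS19 minus WT by edgeR, with a median of 0.20. The shares of all genes were 7.50% higher and 3.32% lower. DESeq2 called 9 higher, against 8.81% of all genes, and 1 lower. Fyb, an adaptor of blood cells, rose by 1.59 (SE 0.20, adjusted p = 0.000163 by edgeR), Apbb1ip (RIAM, which brings talin to the membrane) by 0.97 (adjusted p = 0.000917), Tln1 (talin 1) by 0.50 (adjusted p = 0.00169) and the small GTPase Rap1b by 0.28 (adjusted p = 0.000535). Tln2, the talin of muscle and neurons, was the 1 that fell (-0.31, adjusted p = 0.00866). The broadly expressed kindlin Fermt2 was at 0.14 (adjusted p = 0.0747) and the epithelial Fermt1 at -0.03 (adjusted p = 0.965), so Fermt3 was the kindlin that passed by edgeR. Whether the kindlins differed from each other was not tested. Fyb also rose in PS19/C3aR KO minus WT, by 0.85 (adjusted p = 0.0466). None passed by edgeR in PS19/C3aR KO minus PS19. DESeq2 called 2 lower there (1.88% of all genes), and 6 were lower at an unadjusted p below 0.05 (8.91%). PS19/C3aR KO minus C3aR KO gave none by edgeR or DESeq2, with 6 higher at an unadjusted p below 0.05, against 5.97% of all genes.

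Of 19 genes that carry signals from beta 2 integrins, 13 rose and none fell in PS19 minus WT by edgeR or DESeq2, with a median of 1.06. The shares of all genes called higher were 7.50% by edgeR and 8.81% by DESeq2. At an unadjusted p below 0.05, 1 was lower, as were 1755 of the 16657 genes tested. Tyrobp (DAP12, the adaptor that beta 2 integrins use to reach Syk) rose by 1.98 (SE 0.25, adjusted p = 0.000163 by edgeR) and the Src family kinases Fgr and Lyn by 3.55 and 1.07 (adjusted p = 0.000626 and 0.000591). Rac2, the GTPase of blood cells, rose by 1.08 (adjusted p = 0.000365). The 6 that did not pass included Ptk2b (-0.23, 691 CPM in PS19 and 774 CPM in WT) and Src (-0.12). Among them were also Coro1a (77.1 CPM in PS19 and 80.0 CPM in WT) and Vav3 (11.2 and 12.1 CPM). PS19/C3aR KO minus C3aR KO gave none by edgeR. At an unadjusted p below 0.05, 11 were higher (5.97% of all genes), and DESeq2 called 3 higher (0.751%). PS19/C3aR KO minus PS19 gave none by edgeR, while 14 were lower at an unadjusted p below 0.05 (8.91% of all genes) and DESeq2 called 4 lower (1.88%). Tyrobp rose in PS19/C3aR KO minus WT too, by 1.14 (adjusted p = 0.0354). In C3aR KO minus WT none of the genes of these 4 lists passed by edgeR or DESeq2. At an unadjusted p below 0.05 edgeR had 1 subunit and 1 signalling gene lower, where 6.00% of all genes passed in either direction. In the interaction none passed by edgeR or DESeq2 either. At an unadjusted p below 0.05 edgeR had 1 subunit, 3 activation and 5 signalling genes lower, with 1 subunit and 1 activation gene higher. Of all genes, 2.91% were lower at that p, and 691 of 16657 passed it in either direction.

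Microglial markers are set here beside the 4 integrin-related lists. The medians of those lists in PS19 minus WT were 0.26 (ligands), 0.27 (other subunits), 0.20 (activation) and 1.06 (signalling). All 12 resting microglia genes had a log2 fold change above 0 in PS19 minus WT and 11 rose (median 0.73), where 7.50% of all genes rose. Csf1r was at 0.996, Cx3cr1 at 0.91 and Gpr34 at 0.79. All 12 general microglial and myeloid genes rose (median 1.38), with Ly86 at 1.81, Cd68 at 1.80, Cd53 at 1.37 and Spi1, whose product binds PU boxes, at 1.37. The microglial lists gave no edgeR call in PS19/C3aR KO minus C3aR KO. There 7 resting and 12 general genes were higher at an unadjusted p below 0.05 (5.97% of all genes). DESeq2 called 2 and 5 higher (0.751% of all genes). In PS19/C3aR KO minus PS19, Selplg of the resting list fell (-0.53, adjusted p = 0.0363 by edgeR). At an unadjusted p below 0.05, 9 resting and 12 general genes were lower (8.91% of all genes), and DESeq2 called 5 and 8 lower (1.88%). Of other cell types, the neutrophil list gave Mpo and Ngp as called in PS19 minus WT, with PS19 library 3 at 4.27 and 16.2 CPM and the other 19 libraries at most at 0.434 and 0.624 CPM, and the border-associated macrophage list gave Ms4a7 (1.25, adjusted p = 0.0396). None of the tested genes of T and NK cells (4), B cells (1), monocytes (2), dendritic cells (5), platelets (3) or choroid plexus (10) was called in PS19 minus WT by edgeR or DESeq2. At an unadjusted p below 0.05, 1 T and NK cell gene was higher and 1 dendritic cell gene lower. Of all 16657 genes tested, 2371 were higher and 1755 lower at that p. All 10 choroid plexus genes had a log2 fold change above 0 in PS19 minus WT, with a median of 1.02. The list summed to 32.5 to 4387 CPM in libraries labelled PS19/C3aR KO, 76.1 to 4651 CPM in PS19, 24.9 to 3353 CPM in libraries labelled C3aR KO and 34.5 to 2041 CPM in WT. With the mean log2 CPM of that list as a covariate, 4 of the 6 integrin genes were called in PS19 minus WT. The share of all genes called in that fit is not given here. The part of these cell types in the integrin results was not tested beyond the fits named here.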

How the data were processed

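Hippocampal polyadenylated RNA was sequenced as paired reads of 76 nucleotides. Per the labels' protocols, the authors aligned reads to mm10 with TopHat 2.0.9 and deposited raw counts per gene, made with HTSeq over the union of each gene's exons. The submitters' processing notes also name DESeq2, with no role. The annotation release and the use of strand are, in the sources used here, not given. The 5 summary lines of each file were left out: reads in no gene equalled 17.4 to 25.4% and ambiguous reads 1.39 to 1.64% of the total. Gene counts per library ran from 33885850 to 47828111, and the median SE of a log2 fold change in PS19 minus WT was 0.097.

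CPM was computed from the counts without the summary lines. Tests used edgeR 4.0.16 in R 4.3.3 (TMM scaling, filterByExpr with a minimum count of 10 and total of 15, quasi-likelihood test), with genotype as the only term over 20 libraries, 6 comparisons and Benjamini-Hochberg adjustment over 16657 genes at 0.05. A second fit used the summed counts of the resting microglia list as the library size. Shares of alpha chains used counts per kb of exon (GENCODE vM21) and a two-sided exact permutation test. Alternatives were DESeq2 1.42.0, RLE scaling, no or a stricter filter (1 CPM in 5 libraries) and the replicate number as a block. The Rn45s share or the mean log2 CPM of the choroid plexus list was added as a covariate in others. Further alternatives were only the groups compared, the general microglial list, shares without length division, and leaving out each library. The fits were tested on simulated data. Library pairs of a genotype differed by more than counting noise (chi-square per degree of freedom 8.70 to 106).

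The 6 genes and the lists were chosen with earlier results of these data known. From each list, up to 4 called genes with the lowest p were named, plus genes from counts of 5 or fewer. Itgb7, Itgad, Fermt1, Fermt2, Ptk2b, Src, Coro1a and Vav3 were chosen after their values were seen. Genes most alike were ranked by Pearson r of log2 CPM (prior count 2) among genes of mean log2 CPM of at least 1, without predicted genes. A gene that these rules name is not reported here.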

Additional observations from a re-analysis of the deposited data

Results flagged for a closer look

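In 24 groups of 5 libraries (6 genes in 4 genotypes), 2 held a library far from the others by Dixon's criterion (gap to the nearest library over the group's range above its 95% critical value), where chance alone gives about 1 in 20 groups. Itgb2 in PS19 library 5 was 8.96 CPM, with the nearest PS19 library at 18.7 CPM and a gap of 0.758 of the range. Itgax in WT library 5 was 0.729 CPM, with the nearest WT library at 0.465 CPM and a gap of 0.765 of the range.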

How the results depend on the processing

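Counts of the 6 genes called are given here, then single genes. PS19 minus WT gave 3 to 5 calls under the 8 alternative settings and 4 without any single library. The 5 were with the replicate number as a block, where 12.6% of all genes were called. Shares of all genes called are not given for the other settings but DESeq2, nor for fits without 1 library, here or above. Those counts describe how calls move, not the 6 genes as a set. With DESeq2 the count was 2 in PS19/C3aR KO minus C3aR KO, where 0.751% of all genes were called higher. It was 1 in PS19/C3aR KO minus PS19 (1.88% called lower) and 2 in PS19/C3aR KO minus WT (2.03% called higher). The last comparison gave 0 with the Rn45s share as a covariate and 0 with only the groups compared. Leaving out 1 library gave 0 to 2 in PS19/C3aR KO minus C3aR KO, 0 to 2 in PS19/C3aR KO minus PS19 and 1 to 3 in PS19/C3aR KO minus WT, the 3 being without PS19 library 5. Relative to resting microglia, leaving out 1 library gave 0 to 3 in PS19/C3aR KO minus C3aR KO (3 without PS19 library 5 or PS19/C3aR KO library 5), 0 to 3 in PS19/C3aR KO minus PS19 (0 without PS19 library 1 or PS19/C3aR KO library 5), 1 to 3 in PS19/C3aR KO minus WT and 0 to 2 in the interaction (both upper values without PS19 library 5). The general microglial list as library size gave 2 in PS19/C3aR KO minus C3aR KO. The alpha X share differed by 7.77 to 11.96 points in PS19/C3aR KO minus C3aR KO and by 0.654 to 1.33 points in C3aR KO minus WT when 1 library was left out, the second being called without C3aR KO library 4 (exact permutation, adjusted p = 0.0496).

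The labels do not say whether libraries with the same replicate number share anything else. Of 30 same-numbered pairs, 16 had a correlation of deviations above 0.1 (range -0.27 to 0.55, the highest for number 2 of C3aR KO and WT). In 9 of the 30 the library correlated best with its own number. With the replicate number as a block, PS19/C3aR KO minus C3aR KO gave 1 call, where 0.132% of all genes were called. Relative to resting microglia the replicate block gave 3 calls in PS19/C3aR KO minus C3aR KO (50.4% of all genes called) and 2 in PS19/C3aR KO minus WT (25.9%), Itga4 being lower in both (-0.68 and -0.60). In PS19 minus WT the block added Itga4 (-0.33, adjusted p = 0.0331).

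Of 1794 values of single genes under alternatives, 38 changed sign, 1 of them with an adjusted p below 0.05 (Itgam in PS19 minus WT, -0.43, with the general list). That list also turned Fermt3 in PS19 minus WT (-0.27), Itgam and Fermt3 in PS19/C3aR KO minus C3aR KO (-0.15 and -0.14), Itgam and Fermt3 in PS19/C3aR KO minus PS19 (0.19 and 0.25), Fermt3 in PS19/C3aR KO minus WT (-0.019), and Itgal and Fermt3 in the interaction (0.16 and 0.14). The Rn45s share turned Fermt3 in C3aR KO minus WT (-0.15) and Itgal and Itga4 in the interaction (0.017 and -0.15). Leaving out 1 library gave Itgal -0.15 to 0.41 in PS19/C3aR KO minus C3aR KO, and Itga4 -0.013 to 0.17 in PS19/C3aR KO minus PS19, -0.0018 to 0.058 in C3aR KO minus WT and -0.043 to 0.14 in the interaction. Relative to resting microglia it gave Itgam -0.016 to 0.05 in PS19 minus WT, -0.043 to 0.17 in PS19/C3aR KO minus C3aR KO, -0.19 to 0.018 in PS19/C3aR KO minus PS19, -0.17 to 0.034 in PS19/C3aR KO minus WT and -0.059 to 0.15 in the interaction. It gave Itgal -0.59 to 0.062 in PS19/C3aR KO minus C3aR KO and -0.35 to 0.30 in the interaction, and Fermt3 -0.080 to 0.054 in PS19/C3aR KO minus PS19. The cause of these changes was not tested. Itgal, and Itgax in WT and C3aR KO, rest on low counts.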
